A study of Caenorhabditis elegans with 6 samples.

Results

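The troponin complex genes of Caenorhabditis elegans are described here across 6 RNA-seq libraries of whole adult worms. The 10 genes (mup-2, tnt-2, tnt-3, tnt-4, tni-1, unc-27, tni-3, tni-4, pat-10 and tnc-2) were found by their symbols, and each had 1 locus among the 15796 loci of the deposited tables, with the same name and position in all 7 tables. All 10 were among the 13347 loci tested. Every library came from the wild type strain Bristol N2, grown at 20 °C. L4 larvae were placed on plates with 6 mM IPTG and bacteria that produce double-stranded RNA (RNA interference, RNAi, by feeding), and adults of the following generation were harvested as whole animals. The control group, 3 biological replicates, was fed RNA against tag-208, now named sorb-1, and the other 3 replicates were fed RNA against prx-5, the receptor that brings enzymes into the peroxisome. The control target sorb-1 encodes a sorbin-like protein of muscle attachment sites, so for a muscle gene a difference between the groups can belong to either target, and the 2 cannot be told apart in this design.

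Troponin is the calcium switch of the thin filament. Troponin T ties the complex to tropomyosin, troponin I blocks the action of myosin on actin, and troponin C binds calcium and lifts the block. Nematodes carry separate genes for the muscles of the body wall, which move the animal, and for the pharynx, which pumps food. From their reported expression, mup-2, tnt-2 and tnt-3 (troponin T), unc-27, tni-3 and tni-1 (troponin I) and pat-10 (troponin C) are called body wall genes here, and tnt-4, tni-4 and tnc-2 pharynx genes. The libraries hold whole worms, so fewer muscle cells and less RNA per muscle cell cannot be told apart.

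The loci are given in coordinates that match the WBcel235 annotation, in which all 10 genes are protein-coding. Chromosome X held 5 of the 7 body wall genes. These were mup-2 (WBGene00003495, locus 6403467 to 6410317), tnt-3 (WBGene00006588, 7937568 to 7945259), tnt-2 (WBGene00006587, 8721554 to 8723833), unc-27 (WBGene00006764, 8789417 to 8790646) and tni-1 (WBGene00006584, 11375874 to 11379159). Of the other body wall genes, tni-3 (WBGene00006585) lay on chromosome V from 16833626 to 16835135 and pat-10 (WBGene00003934) on chromosome I from 5018739 to 5020104. The pharynx genes lay apart, tnt-4 (WBGene00006589) on chromosome V from 1989422 to 1992999, tni-4 (WBGene00006586) on chromosome IV from 5204584 to 5209471 and tnc-2 (WBGene00006583) on chromosome II from 10466808 to 10468360. The pat-10 locus covered 83.9% of the annotated gene, and the other loci nearly all of it. The annotation gives tnt-3 11 transcripts from 27 exons, pat-10 6 transcripts and tnt-4 2, and a single transcript to each of the others. A locus value sums over the transcripts of the gene, so a shift between them is not visible in these values.

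For 4 of the 10 loci another protein-coding gene lies within the same span on the other strand, and whether reads were counted by strand is not given in the sources used here. The mup-2 locus spans most of the transporter gene glt-4, which the tables list with its own value at the same locus (4.62 FPKM in the control and 5.20 in the prx-5-labelled libraries). The tni-4 locus spans Y59E9AL.36, listed at 54.9 and 45.6 FPKM. The tni-3 gene lies inside phy-3, and tnc-2 shares 159 bp with clec-143. The glt-4 values are small beside those of mup-2, while those of Y59E9AL.36 are of the same order as those of tni-4.

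Values are FPKM, which are fragments counted per unit of locus length and per unit of mapped fragments. The number of reads behind them is unknown. Across loci (not independent replicates), any 2 libraries correlated at a Pearson r of 0.909 to 0.970. Of the 13347 loci tested (mean FPKM 1 or more), 1160 changed between the groups at an adjusted p under 0.05 by limma on log2(FPKM + 1), 1000 of them higher and 160 lower in the prx-5-labelled group. Higher loci were 86.2% of these calls, and 69.0% to 73.4% under 3 other scalings, which shifted all loci by a log2 median of -0.11 to -0.25. Against the label, RNA of prx-5 was higher rather than lower in the libraries labelled prx-5 RNAi (4.24 ± 0.65 FPKM in the control and 19.9 ± 4.45 in the prx-5-labelled group, mean ± SD, n = 3; limma adjusted p = 0.00865). RNA of sorb-1 stood at 10.5 ± 3.11 FPKM in the control and 18.03 ± 6.60 in the prx-5-labelled libraries (limma adjusted p = 0.232). For sorb-1 every control library lay below every prx-5-labelled library, the direction of the tag-208 label, as in 21.1% of all tested loci. Directions below are therefore those of the labels alone.

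The body wall troponin T gene mup-2 fell in the libraries labelled prx-5 RNAi, to 47.7% of its control level, and no other troponin gene passed the test. For mup-2, tnt-2, unc-27, tni-3 and pat-10, which are 5 of the 7 body wall genes, every prx-5-labelled library lay below every control library, at 47.4% to 59.6% of the control mean. Over all loci tested, 5.77% showed such a separation in that direction. The remaining body wall genes tnt-3 and tni-1 and all 3 pharynx genes overlapped between the groups. In 0 of the 10 genes did every prx-5-labelled library lie above every control library, against 21.1% of all loci tested. Of the 10 genes, 1 passed the limma test, where 8.69% of all tested loci did. It was lower, as were 1.2% of all tested loci, and 0 were higher, against 7.49%. At an unadjusted limma p under 0.05 and lower there were 5 genes, the same 5 that separated, against 4.44% of all tested loci.

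**Figure D1:**
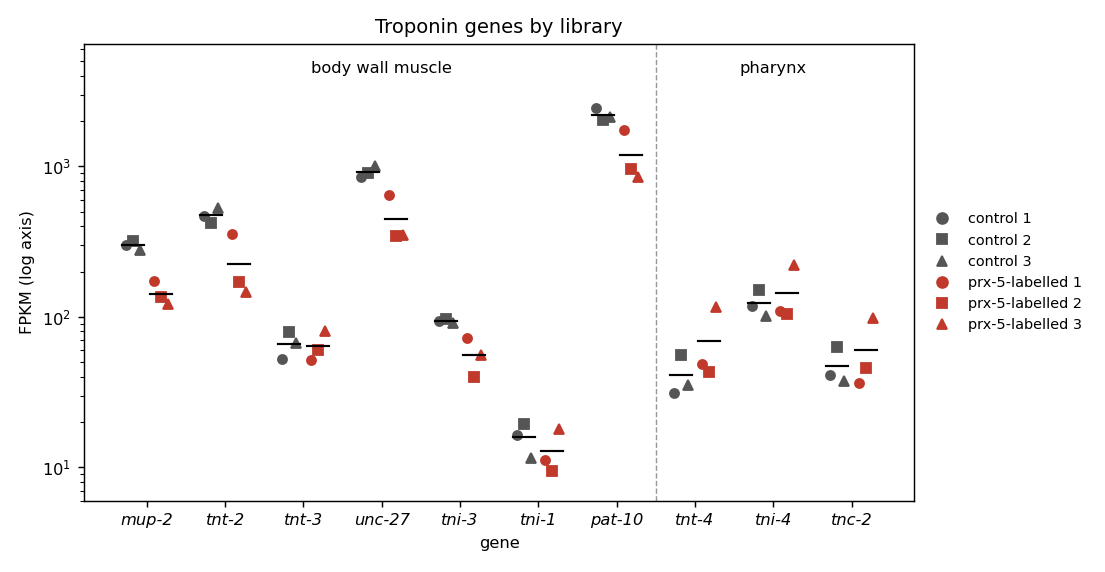
FPKM of the 10 troponin genes (log axis) in each library, with grey points for the 3 control libraries, red points for the 3 prx-5-labelled libraries, 1 symbol shape per replicate number and black lines for group means. In mup-2, tnt-2, unc-27, tni-3 and pat-10 all red points lie below all grey points, with prx-5-labelled replicate 1 the nearest to the control, while in the pharynx genes prx-5-labelled replicate 3 is the highest point.

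Troponin T was the subunit with the lowest p. The gene mup-2, named for the muscle positioning defect of its mutants, had 301, 317 and 277 FPKM in control replicates 1, 2 and 3 and 172, 135 and 121 in prx-5-labelled replicates 1, 2 and 3. All 3 prx-5-labelled values were low, and the control values lay within a narrow band. On the log2 scale the fold change was -1.07 ± 0.18 (SE, limma adjusted p = 0.0183). The call was lost without control replicate 1 (adjusted p = 0.0682), without control replicate 3 (0.0743), without prx-5-labelled replicate 2 (0.08699) or without prx-5-labelled replicate 3 (0.0780), in limma fits with fewer libraries, while the log2 fold change stayed between -1.22 and -0.96 over all 17 alternatives run.

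The troponin T with the highest level was tnt-2. It had 467, 419 and 531 FPKM in the control libraries and 357, 170 and 146 in the prx-5-labelled ones. Replicate 1 of the prx-5-labelled group stood between the control values and the other two. Its log2 fold change of -1.18 ± 0.34 (SE) missed the threshold (limma adjusted p = 0.0803), and without prx-5-labelled replicate 1 it was -1.58 with an adjusted p of 0.00381. Leaving out any other single library gave -1.26 to -0.93, with a limma adjusted p of 0.1075 to 0.246.

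The third body wall troponin T, tnt-3, had 52.8, 79.1 and 67.4 FPKM in the control and 51.96, 60.1 and 80.2 FPKM in the prx-5-labelled libraries. The groups overlapped over their whole range, and the log2 fold change was -0.06 ± 0.22 (SE, limma adjusted p = 0.910), a sign that turned in 3 of the alternatives. The pharynx troponin T, tnt-4, had 31.1, 55.8 and 35.5 FPKM in the control and 48.5, 43.3 and 117 in the prx-5-labelled libraries. Only replicate 3 of the prx-5-labelled group exceeded the highest control. The log2 fold change of tnt-4 was 0.65 ± 0.40 (SE, limma adjusted p = 0.401), and it was 0.21 without that replicate.

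Among the troponin I genes, unc-27 had by far the highest level. Mutants of unc-27 move poorly, and the gene makes the main troponin I of the body wall. It had 849, 902 and 1001 FPKM in the control libraries and 644, 346 and 349 in the prx-5-labelled libraries. All prx-5-labelled values were below the control, replicate 1 less so. The log2 fold change was -1.099 ± 0.274 (SE), just outside the threshold (limma adjusted p = 0.0543). With the authors' scaling constants it was -1.24 and passed (adjusted p = 0.03996), as it did with a filter at a mean of 5 FPKM (adjusted p = 0.0454) and without prx-5-labelled replicate 1 (adjusted p = 0.00375). Leaving out any other single library gave -1.15 to -0.95, with a limma adjusted p of 0.102 to 0.193.

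The second body wall troponin I, tni-3, had a control level that hardly varied, with 94.4, 96.6 and 90.8 FPKM, against 72.3, 40.04 and 55.5 in the prx-5-labelled libraries. The groups were apart, and the spread lay in the prx-5-labelled group. Its log2 fold change was -0.78 ± 0.22 (SE, limma adjusted p = 0.0797), and -0.91 with an adjusted p of 0.0491 under the authors' constants. The weakly expressed tni-1 had 16.5, 19.4 and 11.6 FPKM in the control and 11.2, 9.43 and 17.9 in the prx-5-labelled libraries. The highest prx-5-labelled value of tni-1, replicate 3, lay inside the control range (log2 fold change -0.30 ± 0.28 SE, limma adjusted p = 0.590). The pharynx troponin I, tni-4, had 117, 152 and 102 FPKM in the control and 110, 105 and 220 in the prx-5-labelled libraries. As with tnt-4, prx-5-labelled replicate 3 was high and the other two lay within the control range. For tni-4 the log2 fold change was 0.16 ± 0.31 (SE, limma adjusted p = 0.790), and -0.18 without prx-5-labelled replicate 3.

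Troponin C had the highest single gene of the complex. The body wall gene pat-10, without which embryos are paralysed and stop elongating, had 2433, 2042 and 2126 FPKM in the control libraries and 1737, 962 and 849 in the prx-5-labelled ones. Every prx-5-labelled value was below every control value, with replicate 1 nearest to the control. By mean FPKM, pat-10 ranked 55 among the loci used in the control and 90 in the prx-5-labelled group. At -0.96 ± 0.31 (SE), the log2 fold change missed the threshold (limma adjusted p = 0.1105), and without prx-5-labelled replicate 1 it was -1.28 with an adjusted p of 0.00630. Leaving out any other single library gave -1.02 to -0.76, with a limma adjusted p of 0.179 to 0.365. The pharynx troponin C, tnc-2, had 41.4, 63.1 and 37.7 FPKM in the control and 36.5, 45.4 and 97.6 in the prx-5-labelled libraries. The groups overlapped, again with replicate 3 of the prx-5-labelled group on top. For tnc-2 the log2 fold change was 0.24 ± 0.38 (SE, limma adjusted p = 0.750), and -0.18 without that replicate.

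In the authors' deposited table, all 5 body wall genes that separated were significant and lower, against 4.85% of the loci tested here, and tnt-4 was significant and higher, against 9.52%. The log2 fold change in the authors' deposited table was -1.21 for mup-2, -1.23 for tnt-2, -1.19 for unc-27 and -1.04 for pat-10, each with a q of 0.00101. For tni-3 the authors' deposited table gave -0.895 (q = 0.00264) and for tnt-4 it gave 0.63 (q = 0.0285). The other 4 genes were not significant in the authors' deposited table, with q between 0.221 (tni-1) and 0.879 (tni-4). That table rests on the same 6 libraries and is not independent support.

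The order of the levels differed between the groups. In the control it ran pat-10, unc-27, tnt-2, mup-2, tni-4, tni-3, tnt-3, tnc-2, tnt-4 and tni-1, by mean FPKM. The 4 leading genes did not overlap with each other in any control library, whereas tnt-3 (66.4 ± 13.2 FPKM), tnc-2 (47.4 ± 13.7 FPKM) and tnt-4 (40.8 ± 13.2 FPKM, SD, n = 3) overlapped, and tni-1 lay below them all. In the prx-5-labelled libraries, tni-4 (145 ± 65.2 FPKM) and mup-2 (143 ± 26.4 FPKM) stood level, and tnt-4, tnt-3, tnc-2 and tni-3 all lay between 55.9 and 69.7 FPKM by their means and overlapped. The 3 leading genes and tni-1 kept their places.

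A ratio within a library, here of FPKM + 1, hardly depends on how libraries were scaled. For each subunit, 1 body wall gene was set against its pharynx counterpart. The log2 ratio of mup-2 to tnt-4 was 3.24, 2.49 and 2.93 in control replicates 1, 2 and 3 and 1.80, 1.62 and 0.04 in prx-5-labelled replicates 1, 2 and 3. The groups did not overlap, and in prx-5-labelled replicate 3 the mup-2 and tnt-4 levels were nearly equal. The difference was -1.73, with an exact two-sided permutation p of 0.1, the smallest that 3 against 3 libraries allow (0.15 adjusted over the 3 ratios).

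The ratio of unc-27 to tni-4 was 2.84, 2.57 and 3.29 in the control and 2.54, 1.71 and 0.66 in the prx-5-labelled libraries, on the log2 scale. These groups did not overlap either, though prx-5-labelled replicate 1 came close to control replicate 2, and the difference was -1.26 (exact two-sided permutation p = 0.1, adjusted 0.15). The ratio of pat-10 to tnc-2 was 5.84, 4.99 and 5.78 in the control and 5.54, 4.37 and 3.11 in the prx-5-labelled libraries. Here prx-5-labelled replicate 1 lay inside the control range, and the difference of -1.20 had an exact two-sided permutation p of 0.2. Without prx-5-labelled replicate 3, which had the highest pharynx values, the 3 differences were -1.17, -0.77 and -0.58 in the order mup-2, unc-27 and pat-10. The remaining 4 body wall genes against the same counterparts gave log2 differences from -1.84 (tnt-2) to -0.46 (tni-1), and 3 of these 4 ratios did not overlap between the groups, tni-3 to tni-4 being the exception. They reuse tnt-4 and tni-4, so they are not separate from the ratios above. How often ratios of other genes separate was not computed. The levels of tnt-3 themselves overlapped, and its ratio to tnt-4 was 0.496 in control replicate 2 and 0.462 in prx-5-labelled replicate 2.

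**Figure D2:**
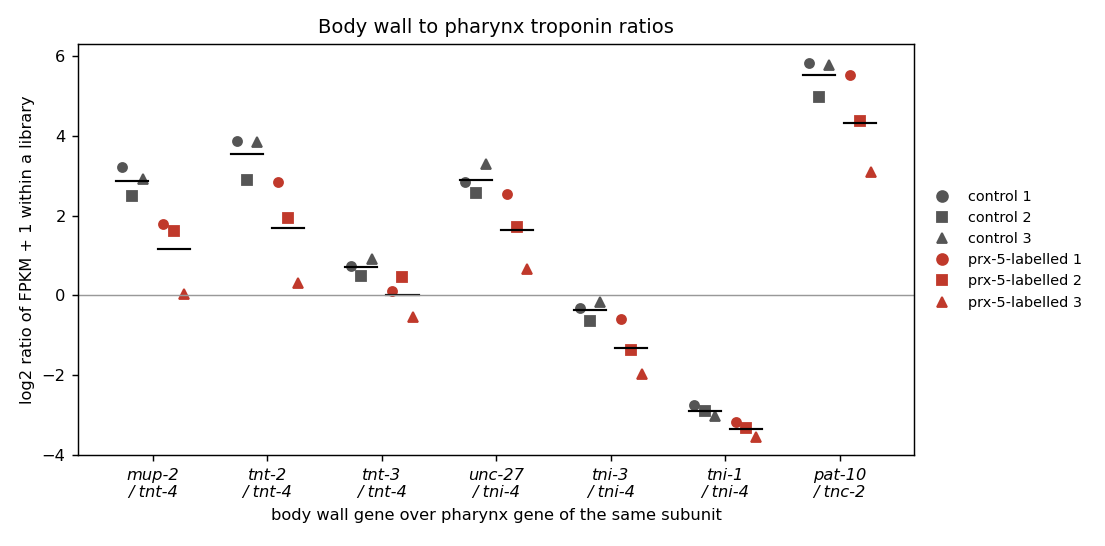
Within-library log2 ratio of FPKM + 1 between each body wall gene and the pharynx gene of the same subunit, with grey points for control libraries, red points for prx-5-labelled libraries and black lines for group means. The red mean is below the grey mean in all 7 ratios, with differences from -1.84 to -0.46, and prx-5-labelled replicate 3 is the lowest point in each.

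The genes were also compared as shares of their subunit. Of the summed troponin T FPKM, tnt-2 made up 53.7% ± 5.15 in the control and 43.2% ± 12.7 in the prx-5-labelled group (mean ± SD, n = 3), and mup-2 34.1% ± 3.18 and 28.8% ± 3.75. The pharynx gene tnt-4 made up 3.65%, 6.40% and 3.90% of troponin T in the control libraries and 7.71%, 10.6% and 25.3% in the prx-5-labelled libraries. All prx-5-labelled shares of tnt-4 were above the control shares. For troponin I the share of tni-4 was 10.9%, 12.96% and 8.43% in the control and 13.2%, 20.9% and 34.3% in the prx-5-labelled libraries, also without overlap. The share of tni-3 in troponin I hardly moved, at 8.19% ± 0.62 and 8.42% ± 0.36. Troponin C was nearly all pat-10, with tnc-2 at 1.67%, 2.997% and 1.74% in the control and 2.06%, 4.51% and 10.3% in the prx-5-labelled libraries, where the groups overlapped. A share rises when the other members are lower, so these shares and the body wall levels are the same values seen in another way.

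**Figure D3:**
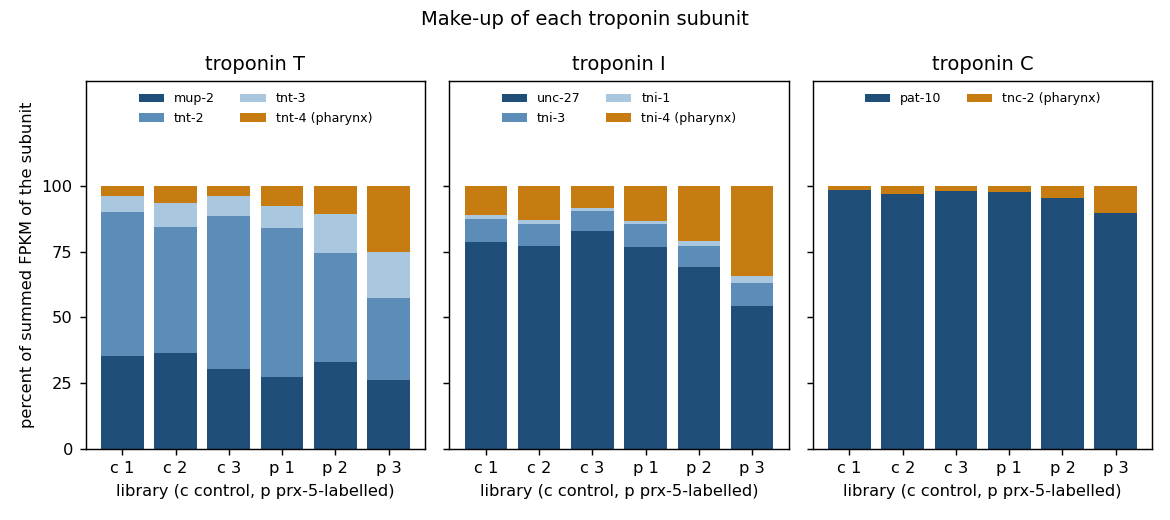
Share of each gene in the summed FPKM of its subunit, 1 bar per library (c for control and p for prx-5-labelled, with the replicate number), blue for body wall genes and orange for pharynx genes. The orange part is largest in prx-5-labelled replicate 3, at 25.3% of troponin T, 34.3% of troponin I and 10.3% of troponin C.

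The sums of the 3 subunits stood in similar proportions in both groups. Summed troponin T went from 878 ± 29.95 to 500.2 ± 115 FPKM (SD, n = 3), troponin I from 1151 ± 66.3 to 660.2 ± 169 and troponin C from 2248 ± 199 to 1243 ± 461. The ratio of summed troponin I to summed troponin T was 1.26, 1.34 and 1.32 in the control libraries and 1.33, 1.23 and 1.39 in the prx-5-labelled libraries. Means of 1.31 ± 0.04 and 1.31 ± 0.08 (SD, n = 3) differed by less than the spread between replicates. The ratio of troponin C to troponin I was 1.96 ± 0.29 in the control and 1.87 ± 0.35 in the prx-5-labelled libraries, again within that spread.

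The other genes of the thin filament did not move as one. The list held actins, tropomyosin and proteins that bind, cap or turn over actin. Of 15 genes, 12 had a usable locus, all were tested, and 1 fell and 1 rose. Over all tested loci 1.2% fell and 7.49% rose. The median log2 fold change of the 12 was -0.16, where that of all tested loci was 0.04, with 7 below 0 and 5 above. Their summed level was 4597 to 5440 FPKM in the control and 3436 to 4097.5 in the prx-5-labelled libraries. In 3 of the 12 every prx-5-labelled library lay below every control library, and in 1 above, against 5.77% and 21.1% of all tested loci. The gene that fell was unc-87, whose calponin-like product bundles actin. It went from 413 ± 18.8 to 232 ± 50.97 FPKM (SD, n = 3; log2 fold change -0.85 ± 0.19 SE, limma adjusted p = 0.0402). The gene that rose was act-5, the actin of the intestinal brush border, from 207 ± 37.8 to 491 ± 129 FPKM (log2 fold change 1.22 ± 0.25 SE, limma adjusted p = 0.0296). It is also counted among the intestine markers below.

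Tropomyosin lev-11, the partner of troponin T on the filament, had 1638, 2210 and 1905 FPKM in the control libraries and 1268, 1086 and 1146 in the prx-5-labelled libraries. The groups did not overlap, and the log2 fold change was -0.71 ± 0.21 (SE, limma adjusted p = 0.0892). The muscle actin act-4 had 875, 1306 and 1194 FPKM in the control and 775, 584 and 657 in the prx-5-labelled libraries. Its groups were apart as well (log2 fold change -0.73 ± 0.23 SE, limma adjusted p = 0.103). The actin genes resemble each other closely in sequence, so the counting can have moved fragments between them, and act-1 and act-3 had no usable locus.

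A list of calcium handling and contraction control genes held channels, calcium stores and myosin light chains. Of 15 genes, 13 were tested, 1 fell and 0 rose, and their median log2 fold change was 0.04, as over all loci tested. The list was mixed, with 6 below 0 and 7 above, from -0.97 to 0.90. Their summed level was 3072 to 3541 FPKM in the control and 2099 to 2616 in the prx-5-labelled libraries. In 4 of the 13 every prx-5-labelled library lay below every control library, and in 1 above, against 5.77% and 21.1% of all tested loci. By limma, 1.2% of all tested loci fell and 7.49% rose. The ryanodine receptor unc-68 and the calcium pump sca-1 had no usable locus. The gene that fell was csq-1, calsequestrin, which holds calcium in the muscle store. It had 253, 263 and 275 FPKM in the control and 185, 110 and 120 in the prx-5-labelled libraries, lower in each and with replicate 1 nearest to the control, as in the 5 body wall troponin genes that separated (log2 fold change -0.97 ± 0.22 SE, limma adjusted p = 0.0402). The myosin regulatory light chain mlc-2 went from 1513 ± 102 to 958 ± 211 FPKM (SD, n = 3) and did not pass (log2 fold change -0.68 ± 0.22 SE, limma adjusted p = 0.126). The near-identical mlc-1 and mlc-2 may share fragments.

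**Figure D4:**
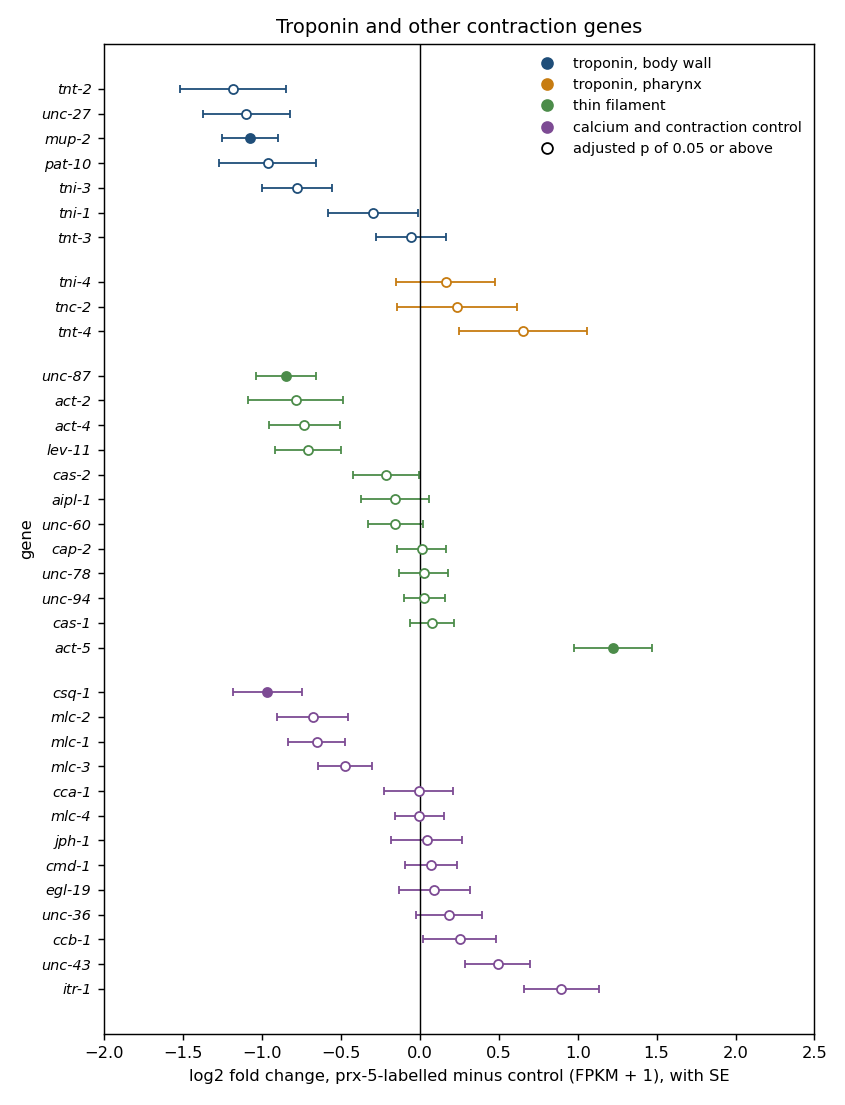
Log2 fold change (prx-5-labelled minus control, FPKM + 1) with its SE from limma for the troponin genes and for 2 lists of contraction genes. Filled points passed at an adjusted p under 0.05. The filled points are mup-2, unc-87 and csq-1 below 0 and act-5 above 0, and the 3 pharynx troponin genes lie between 0.16 and 0.65.

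Of 16 tested body wall muscle markers outside troponin, 2 fell and 0 rose, against 1.2% and 7.49% of all tested loci. Their median log2 fold change was -0.36, where that of the 7 body wall troponin genes was -0.96. In 10 of the 16 every prx-5-labelled library lay below every control library, against 5.77% of all tested loci. Those that fell were dim-1, a muscle attachment protein (log2 fold change -1.18 ± 0.17 SE, limma adjusted p = 0.0139), and the integrin gene pat-2 (log2 fold change -0.78 ± 0.18 SE, limma adjusted p = 0.0416). The main myosin heavy chain unc-54 went from 222 ± 32.1 to 139 ± 18.03 FPKM (SD, n = 3; limma adjusted p = 0.0652), and paramyosin unc-15, the highest of the list, from 261 ± 44.9 to 173 ± 12.9 (limma adjusted p = 0.102). The minor myosin myo-3 had 20.6 ± 3.20 and 16.7 ± 1.19 FPKM (limma adjusted p = 0.391).

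Set against unc-54 in the same library, mup-2 was the single body wall troponin gene of 7 whose ratio was lower in every prx-5-labelled library. Its log2 ratio to unc-54 was 0.69, 0.36 and 0.25 in the control and 0.12, -0.01 and -0.02 in the prx-5-labelled libraries. The ratio of tnt-3 to unc-54 was higher in every prx-5-labelled library (-1.80, -1.63 and -1.78 in the control, and -1.59, -1.16 and -0.60 in the prx-5-labelled libraries, log2 scale). For the other 5 genes the ratio overlapped between the groups. Against myo-3 and against act-4, mup-2 again had a lower ratio without overlap, with log2 differences of -0.79 and -0.34. The ratio of tnt-3 to act-4 was again higher without overlap, with a log2 difference of 0.68, and that of tnt-3 to myo-3 overlapped. These ratios were computed after the values were seen and were not tested.

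Of 6 tested pharynx muscle markers, 0 rose and 0 fell by limma at an adjusted p under 0.05. Over all tested loci 7.49% rose and 1.2% fell. The median log2 fold change of the 6 was 0.32, where that of the 3 pharynx troponin genes was 0.24. It was above 0 in 5 of the 6 and below 0 in 1. In 2 of the 6 every prx-5-labelled library lay above every control library, and in 0 below, against 21.1% and 5.77% of all tested loci. The pharyngeal myosin myo-2 had 21.9, 40.8 and 22.8 FPKM in the control and 23.4, 29.1 and 58.2 in the prx-5-labelled libraries (limma adjusted p = 0.675). Control replicate 2 and prx-5-labelled replicate 3 were the high libraries of their groups, as they were in tnt-4, tni-4 and tnc-2. The pharyngeal myosin myo-1 had the same high libraries, with 45.1 FPKM in control replicate 2 and 57.6 in prx-5-labelled replicate 3 (limma adjusted p = 0.785). Within a library, the log2 ratios of the 3 pharynx troponin genes to myo-2 overlapped between the groups, with differences from -0.15 to 0.34. Of the pharyngeal gland genes, 0 of 5 tested passed. Their median log2 fold change was 0.57, with 4 above 0 and 1 below. In 2 of the 5 every prx-5-labelled library lay above every control library, against 21.1% of all tested loci. The gland gene with the highest level, phat-3, had 16.1 ± 1.32 and 16.9 ± 3.86 FPKM.

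Markers of other tissues moved in the same libraries, and their part in the troponin values was not tested. Over all tested loci 7.49% rose and 1.2% fell. Of 9 tested intestine markers 8 rose, and asp-1, vha-6, elt-7 and pho-1, those with the smallest p, had log2 fold changes from 1.47 to 2.53. The summed level of the 9 intestine markers was 866 to 1301 FPKM in the control and 2991 to 5776 in the prx-5-labelled libraries. The summed level of the 11 germline markers was 2206 to 3329 FPKM in the control and 1840 to 2808 in the prx-5-labelled libraries, with 0 calls, and cgh-1, the highest, had 932 ± 228 and 740.5 ± 160 FPKM. All 11 had log2 fold changes below 0, with a median of -0.27. The 6 sperm markers summed to 67.8 to 286 FPKM in the control and 36.2 to 81.2 in the prx-5-labelled libraries with 0 calls, with msp-31 the highest and spe-9 at 0 in at least 1 library. All 6 had log2 fold changes below 0, with a median of -1.34. In 3 of the 6 every prx-5-labelled library lay below every control library, against 5.77% of all tested loci. Of 8 hypodermis markers, col-19, an adult cuticle collagen, fell (log2 fold change -1.77 ± 0.19 SE, limma adjusted p = 0.00815), from 997 ± 35.9 to 294 ± 54.1 FPKM. The list summed to 1099 to 1375 FPKM in the control and 585 to 769 in the prx-5-labelled libraries, sums in which col-19 weighed most, while 6 of the 8 had log2 fold changes above 0 and the median was 0.51. Of 10 neuron markers, aex-3 and unc-64 rose (log2 fold changes 0.96 and 0.78), the highest being snb-1 (206 ± 33.6 and 226 ± 18.2 FPKM), with sums of 304 to 378 and 371 to 456 FPKM. All 10 neuron markers had log2 fold changes above 0, with a median of 0.52. In 2 of the 10 every prx-5-labelled library lay above every control library, against 21.1% of all tested loci. The body wall muscle markers summed to 800.2 to 976 FPKM in the control and 580 to 661 in the prx-5-labelled libraries, with unc-89 at 0 in at least 1 library, and the pharynx muscle markers to 70.8 to 118 and 75.0 to 170.2.

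**Figure D5:**
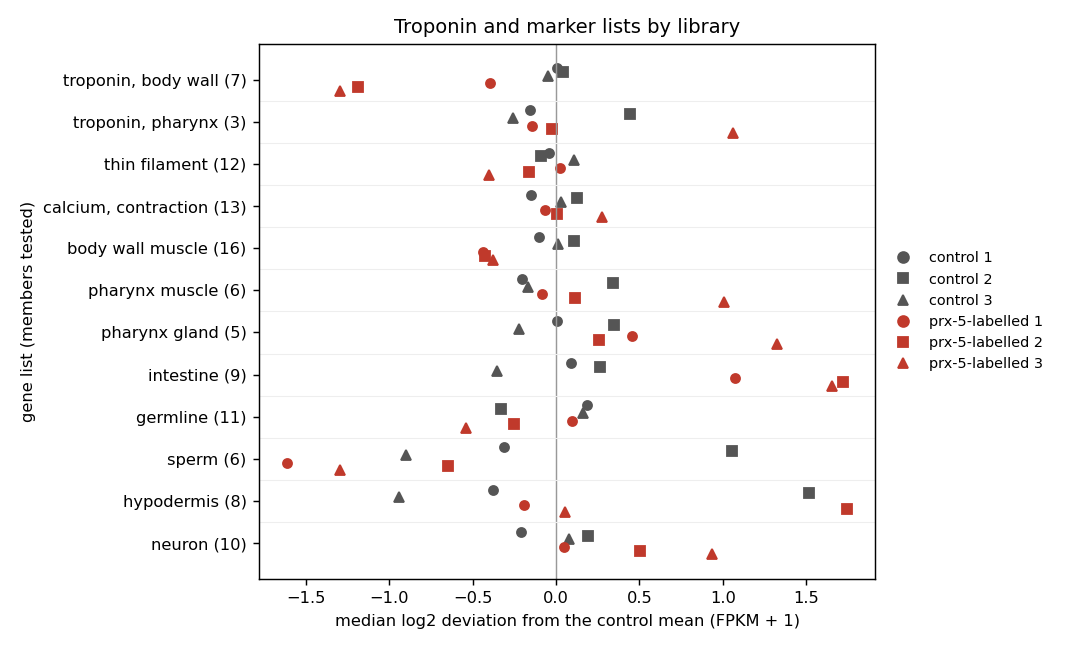
Median over the tested members of each list of the log2 deviation from the control mean (FPKM + 1), 1 point per library, grey for control and red for prx-5-labelled, with the number of members in brackets. The body wall troponin genes stand at -0.40, -1.19 and -1.30 in prx-5-labelled replicates 1, 2 and 3, further below 0 than the body wall muscle markers (-0.44, -0.43 and -0.38) in replicates 2 and 3 but not in replicate 1, and the intestine markers are above 0 in all 3.

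By library, the median deviation of the 7 body wall troponin genes from the control mean was 0.01, 0.04 and -0.05 in the control replicates and -0.40, -1.19 and -1.30 in prx-5-labelled replicates 1, 2 and 3 on the log2 scale. Replicate 1 thus held about as much difference as the body wall muscle markers (-0.44), and replicates 2 and 3 held more. The intestine markers had the same order of replicate 1 against the others, at 1.07, 1.72 and 1.66. The 3 pharynx troponin genes stood at -0.14, -0.02 and 1.06 and the pharynx muscle markers at -0.08, 0.12 and 1.01.

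The patterns most like the mean profile of the body wall troponin genes were sought over the 6 libraries among 8734 singly named loci whose mean was 5 FPKM or more. The 5 with the highest Pearson correlation, between 0.995 and 0.999, were K02F3.9, the hedgehog-related gene grd-3, Y4C6B.7, the muscle attachment gene pat-6 and F40A3.6. With 6 points in 2 groups such values are a description only. Of these, grd-3 fell from 206 ± 6.43 to 44.02 ± 27.4 FPKM (SD, n = 3; limma adjusted p = 0.0179) and F40A3.6 fell from 35.5 ± 2.68 to 18.6 ± 3.91 (limma adjusted p = 0.0295). K02F3.9, Y4C6B.7 and pat-6 did not pass (limma adjusted p = 0.0503, 0.109 and 0.197). The 5 loci were picked for following a profile that is lower in the prx-5-labelled libraries, so their own difference between the groups follows from that choice. Of the 7 genes averaged into that profile, tnt-3 correlated with it at -0.02, tni-1 at 0.42 and the other 5 at 0.94 to 0.98. For the pharynx troponin genes the 5 loci most alike were R02F11.3, T03F1.11, the calponin-like gene clik-2, marg-1 and C54E4.4, with correlations from 0.985 to 0.997. None of the last 5 passed limma at an adjusted p under 0.05 (adjusted p from 0.483 to 0.664), nor at an unadjusted p under 0.05.

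Chromosome X held 5 of the 7 body wall genes. Its loci had a median log2 fold change above that of all tested loci, 0.23 and 0.04. At the same time 2.16% of the 2041 tested loci on X fell, against 1.2% of all tested loci, and 8.38% had every prx-5-labelled library below every control library, against 5.77%. Both shares were the highest of any chromosome. The difference between chromosomes was not tested. The neighbours tnt-2 and unc-27 are 65583 bp apart. Of the 7 tested loci between them, 1 fell and 0 rose, with a median log2 fold change of 0.17.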

How the data were processed

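The members and gene lists were chosen with earlier results of these data known. The authors deposited FPKM per library and, in a comparison table, FPKM per group with a log2 fold change, a test statistic (a score), and a p-value and q-value, per the file headers. The submitters' processing notes list CASAVA, Bowtie, Cufflinks and Cuffdiff. Their versions, the genome build and the counting by strand are not given in the sources used here. Tables were joined by row. Loci whose labels differed between tables (913), or whose group value missed the mean of the libraries after 1 constant per library by more than 2% (97), were left out, and 14786 were used. Values with status FAIL or HIDATA (33) were set to missing.

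FPKM as deposited, without the authors' constants, were changed to log2 with a pseudocount of 1. Fold changes on this scale understate low genes. Loci whose mean reached 1 FPKM were tested with limma 3.58.1 in R 4.3.3 (variance trend, no block, Benjamini-Hochberg, threshold 0.05), and the code was checked on simulated data. FPKM are mean ± SD with n = 3. The labels say biological replicates and name no cultures, so p-values measure the spread between these samples. Named genes were all 10 members, both targets, per list up to 4 called members and the highest, a fixed set of actin, tropomyosin and myosin genes (act-4, lev-11, unc-54, myo-3, myo-1 and myo-2), and the 5 loci most alike. Alternatives covered pseudocount, filter, scaling, variance model, weights, block, loci used and leaving out each library. No sequence is printed.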

Additional observations from a re-analysis of the deposited data

How the results depend on the processing

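The count of changed loci, 1160, was 698 with median-ratio scaling, 770 with quantile normalization, 714 with the authors' constants and 4104 with sample weights, and between 78 and 1848 when 1 library was left out. Higher loci were 86.2% of the calls, but 73.4%, 69.0% and 73.1% under the first 3 of these. The median shift of all loci under them was -0.11, -0.25 and -0.12 (log2). The count of changed troponin genes, 1, was 2 with median-ratio scaling, quantile normalization, a mean of at least 5 FPKM or all loci as listed, 3 with the authors' constants and 5 with sample weights, and 0 to 5 when 1 library was left out. The 5 calls came without prx-5-labelled replicate 1, and 0 without control replicate 1 or 3 or prx-5-labelled replicate 2 or 3. The log2 fold change of tnt-3 turned to 0.12 with sample weights and ran from -0.23 to 0.082 when 1 library was left out, that of tni-4 from -0.18 to 0.35 and that of tnc-2 from -0.18 to 0.52. The cause was not tested. The 5 body wall genes without overlap were 5 with median-ratio scaling and with the authors' constants (chosen after seeing the data). They were 5 or 6 when 1 library was left out. Leaving out a library cannot make separated groups overlap, so this count could not fall and says nothing on how stable the separation is. The ratios mup-2 to tnt-4, unc-27 to tni-4 and pat-10 to tnc-2 kept their sign, from -2.05 to -1.17, -1.71 to -0.77 and -1.80 to -0.58. For mup-2 to tnt-4 and unc-27 to tni-4 the groups did not overlap, so leaving out a library could not turn the sign. With the replicate number as a block, 1253 loci and 1 troponin gene changed. The 3 ratios then differed by -1.73, -1.26 and -1.20 (exact sign-flip p = 0.25 each, the smallest possible). The block cannot move these differences, because both groups hold the same replicate numbers. Deviations of same-numbered libraries correlated at 0.29, 0.232 and -0.117, and those of differently numbered libraries at -0.446 to 0.33. Whether the numbers pair the samples cannot be told from so few values. Read depth is unknown, and no counting error could be given.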
